A study of Mus musculus with 9 samples.

Results

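A panel of 35 endothelial transcripts was followed gene by gene through RNA-seq libraries of sorted mouse liver macrophages. The panel holds 7 scavenger and surface genes of the liver sinusoid, 7 receptors of vascular endothelial growth factor (VEGF) and angiopoietin with their partners, 9 junction and surface genes of endothelium at large, 5 angiocrine factors, 2 transcription factors and 5 other membrane or cytoplasmic genes. Members were taken by symbol from the 23413 genes of the deposited count table, and all 35 were found there. All libraries came from livers of male C57BL/6 mice that entered the study at 5 weeks of age and were kept on diet for 8 weeks, from which F4/80+CD11b+ cells, with low Gr1 by the study's methods, had been sorted as Kupffer cells. The ND group (2 libraries, ND1 and ND2) had a normal diet (10 kcal% fat) and no treatment named in the titles. The Veh group (3 libraries, Veh1 to Veh3) had a high-fat diet (60 kcal% fat) with vehicle. The DPI group (4 libraries, DPI1 to DPI4) had the same diet with diphenyleneiodonium (DPI), an agonist of the receptor GPR3 and an inhibitor of NADPH oxidases. DPI was dosed at 2 mg/kg every 5 days from week 3, as the series describes it. The treatment field of the labels instead describes purified Kupffer cells kept for 24 h in DMSO or in DPI at 500 nM. Because of this conflict, groups were taken from the titles alone. Each library is named for 1 mouse.

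Liver sinusoids are lined by a fenestrated endothelium without a continuous basement membrane, which clears macromolecules from blood through scavenger receptors and lectins. Kupffer cells, the resident macrophages of the liver, sit on and partly within this lining, and both are freed together when the tissue is digested with collagenase. Sinusoidal endothelium also signals to its neighbours: it supplies bone morphogenetic protein to hepatocytes for iron sensing and Wnt ligands for zonation. Macrophages themselves are known to express some genes of the panel, here Pecam1, Nrp1, Eng, Lyve1, Flt1 and Dnase1l3, and these 6 are kept apart from the other 29 where sums are given. Whether macrophages also express some of the 29 was not examined.

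Levels are given as CPM, the count of a gene scaled to a common library total, and counts are whole reads per gene. Library totals lay between 3534325 and 15585775, the latter in DPI1. A gene was taken as read above the floor with more than 3 counts, which correspond to 0.192 to 0.849 CPM. This floor covers counting error only. Between 27% and 44.5% of a library fell on the ribosomal RNA precursor Rn45s. The genes Emr1 (the gene of F4/80), Csf1r and Lyz2 were read in every library. Of Kupffer cell markers, Clec4f had 0 counts in 3 libraries (ND1, Veh2 and Veh3), and Vsig4 and Timd4 had at most 49 and 28 counts in any library. These 3 belong to a list of 18 Kupffer cell genes, of which 10 to 15 were above the floor in each library. In such bulk RNA, fewer cells of a type and less RNA per cell cannot be told apart.

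Promoters are printed for 4 members that moved in both comparisons with Veh, Clec4g, Igfbp7, Aqp1 and Tspan7, because these passed the threshold given below in opposite directions and their windows overlap no annotated exon. Each run is the 250 bases before the RefSeq start of the gene, written 5′ to 3′ on the gene's strand, on GRCm38. Capitals mark a SOX motif.
Clec4g (chr8:3720652-3720901, minus strand): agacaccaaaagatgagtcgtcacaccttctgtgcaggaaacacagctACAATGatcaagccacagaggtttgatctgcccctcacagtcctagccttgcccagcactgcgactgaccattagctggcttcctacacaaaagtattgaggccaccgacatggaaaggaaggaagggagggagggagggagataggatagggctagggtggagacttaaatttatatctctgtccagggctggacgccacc
Igfbp7 (chr5:77408046-77408295, minus strand): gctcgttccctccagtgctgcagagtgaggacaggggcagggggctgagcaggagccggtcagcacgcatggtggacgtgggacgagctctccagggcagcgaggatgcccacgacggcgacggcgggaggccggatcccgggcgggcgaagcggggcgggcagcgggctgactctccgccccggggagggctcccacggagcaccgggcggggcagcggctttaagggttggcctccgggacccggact
Aqp1 (chr6:55336049-55336298, plus strand): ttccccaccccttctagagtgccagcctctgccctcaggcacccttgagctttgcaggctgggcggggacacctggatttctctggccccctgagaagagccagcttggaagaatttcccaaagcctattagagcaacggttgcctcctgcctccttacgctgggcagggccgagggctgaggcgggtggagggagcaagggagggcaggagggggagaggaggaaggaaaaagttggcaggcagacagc
Tspan7 (chrX:10484866-10485115, plus strand): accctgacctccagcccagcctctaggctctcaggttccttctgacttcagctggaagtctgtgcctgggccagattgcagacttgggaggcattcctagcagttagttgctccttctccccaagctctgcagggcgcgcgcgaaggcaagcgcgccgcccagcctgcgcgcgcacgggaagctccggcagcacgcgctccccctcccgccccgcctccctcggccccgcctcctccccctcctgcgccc

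Of the 35 members, 20 had an entry in the RefSeq promoter table, with 22 windows among them. Endothelial genes are known targets of ETS, SOX and GATA factors, so these motifs were searched on both strands. The ETS letters CAGGAAG or CCGGAAG stood in 6 of the 22 windows, belonging to Cyyr1, Egfl7, Emcn, Robo4 and Ushbp1, against 17% of all 32851 windows of this length. The SOX letters ACAAAG or ACAATG stood in 5 windows, those of Clec4g, Egfl7, Eng, Tek and Ushbp1, against 25.2% of all windows. The GATA letters AGATAA stood in 0 of the 22 windows, against 9.99% of all. The 3 printed windows without capitals hold none of these letters, which says nothing about binding.

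The panel was high in ND, low in Veh and split among the DPI libraries. Summed over the 35 members, the level was 655 and 770 CPM in the ND libraries, 88.5, 78.8 and 57.1 CPM in the Veh libraries and 518, 229, 52.4 and 87.7 CPM in DPI1 to DPI4. Both ND libraries lay above all other libraries. DPI1 and DPI2 lay above the 3 Veh libraries, DPI3 lay below them, and DPI4 lay within their range. The group means were 712 ± 81.1 (SD, n = 2), 74.8 ± 16.1 (SD, n = 3) and 222 ± 212 CPM (SD, n = 4), so that the SD of the DPI group was nearly as large as its mean. Without DPI1 the DPI mean was 123 CPM.

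**Figure D1:**
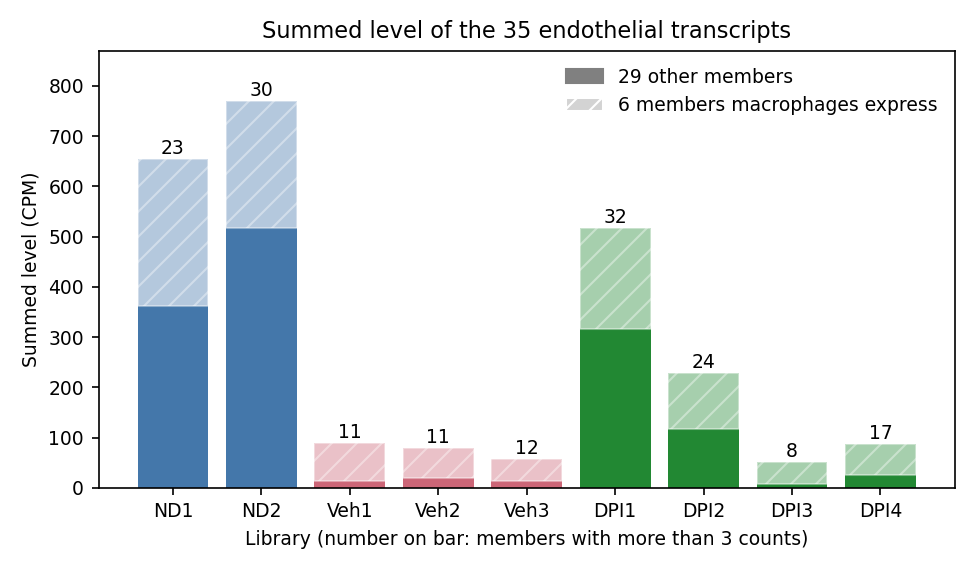
Summed level of the 35 members in CPM (vertical axis) in each of the 9 libraries (horizontal axis), with the 29 other members in solid colour and the 6 macrophage-expressed members hatched. The numbers on the bars count members with more than 3 counts, which run from 8 in DPI3 to 32 in DPI1; the ND bars reach 655 and 770 CPM and the Veh bars at most 88.5 CPM.

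The difference between the groups was carried most by the 29 members outside the 6 kept apart as macrophage-expressed. These summed to 361 and 518 CPM in ND, to 13.4, 19.8 and 14.2 CPM in Veh and to 316, 116, 8.01 and 25.5 CPM in DPI, which puts the ND mean 27.8-fold above the Veh mean and the DPI mean 7.37-fold above it. Without DPI1 the DPI mean was 49.9 CPM, 3.16-fold above the Veh mean. DPI1 held 39.4-fold more of them than DPI3. The 6 macrophage-expressed members summed to 294 and 252 CPM in ND, 75.1, 59.1 and 42.9 CPM in Veh and 202, 113, 44.3 and 62.2 CPM in DPI, with the ND mean 4.62-fold and the DPI mean 1.78-fold above the Veh mean (1.24-fold without DPI1). No test was made on these sums, since the members were chosen with results of these libraries known. More than 3 counts were present for 23 and 30 members in ND, for 11, 11 and 12 in Veh and for 32, 24, 8 and 17 in DPI. DPI1 is also the deepest library, and with every library thinned to the same total the numbers were 23 and 29 in ND, 10, 11 and 10 in Veh and 29, 24, 7 and 16 in DPI.

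**Figure D2:**
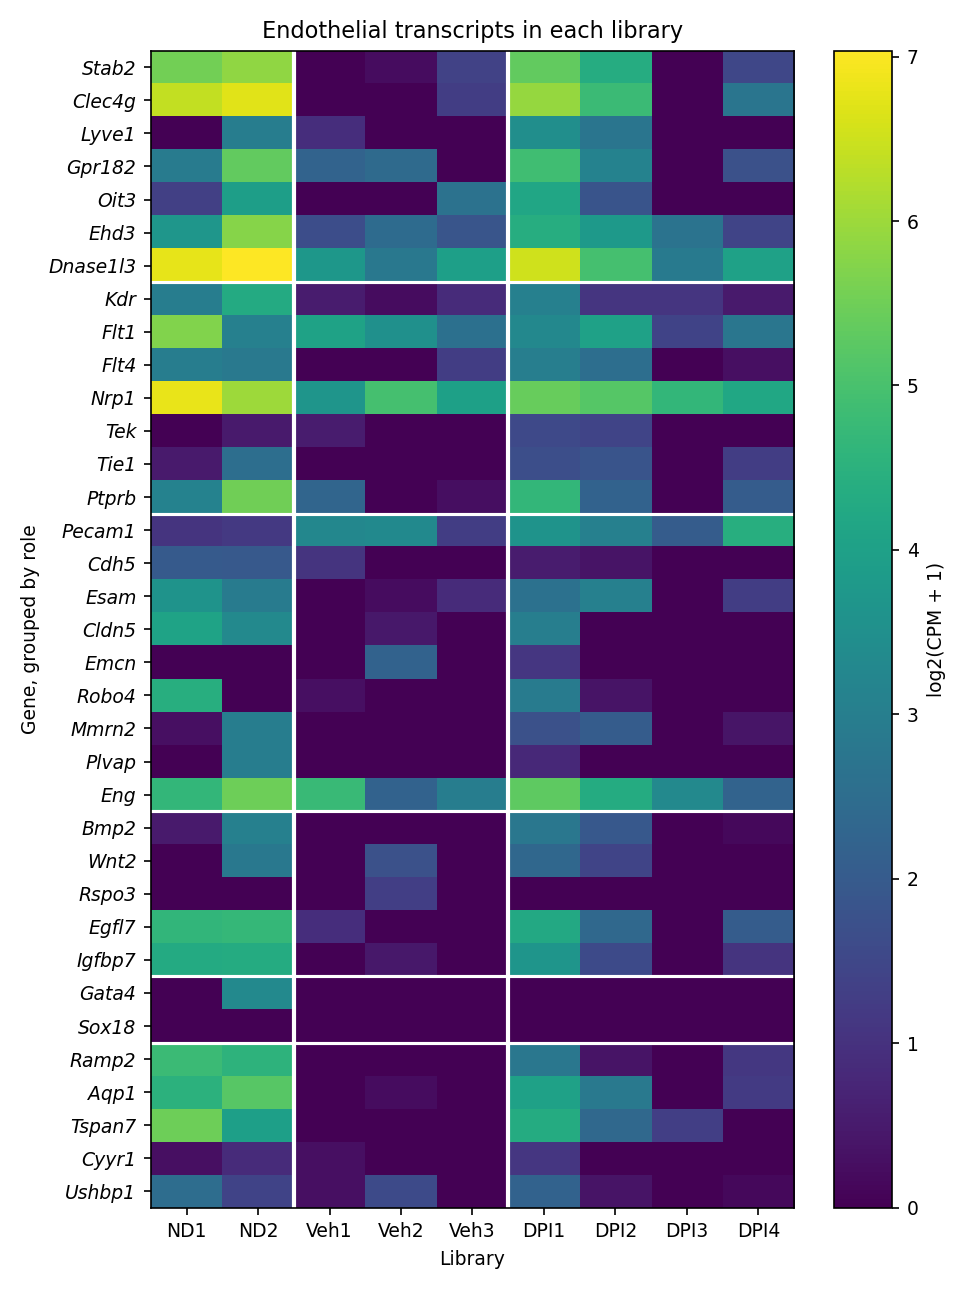
Level of each of the 35 members (rows, grouped by role with white lines) in each of the 9 libraries (columns), on a colour scale of log2(CPM + 1). The ND columns and the DPI1 and DPI2 columns are bright over most rows and the Veh, DPI3 and DPI4 columns dark, while Pecam1 is darkest in ND and Sox18 is dark throughout.

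Each comparison was tested with edgeR's quasi-likelihood test on 11393 genes, of which 28 are members. Tek, Emcn, Plvap, Rspo3, Gata4, Sox18 and Cyyr1 did not have enough counts in enough libraries to be tested. Members were counted at the study's threshold, which asks for an unadjusted p under 0.05 and for a log2 fold change beyond 1 or -1; p was also adjusted over all genes (Benjamini-Hochberg). In Veh against ND, 18 members were lower and 1 was higher, against a background of 4.63% of all tested genes lower and 7.03% higher (11.7% in either direction). In DPI against Veh, 11 members were higher and 0 lower, against 1.5% and 1.34% of all tested genes (2.84% in either direction). In DPI against ND, 1 member was higher and 2 were lower, against 6.24% and 3.05% (9.29% in either direction). The filter on low counts looks at all 9 libraries together, so that a member at or near 0 in Veh could be tested through its reads in ND or DPI1. In a fit of DPI and Veh alone, 11 members had enough counts to be tested, among them 3 of the 11 members called, Clec4g, Dnase1l3 and Egfl7, and these 3 were called there; the other 8 were not tested in it. Of all genes in that fit, 3.78% were called. In a fit of Veh and ND alone, 15 of the 19 called members were tested and 14 of them were called, the exception being Pecam1. Of all genes 9.17% were called there. Members at or near 0 in Veh could still be tested in that fit through their ND reads. The counts of members called are therefore set beside the background as a description. The 3 comparisons share libraries, and the Veh libraries stand on one side of both of the first, so their counts are not independent of each other.

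In this fit no member passed the adjustment in any comparison by edgeR's quasi-likelihood test, with smallest adjusted p of 0.115 (Aqp1, Veh against ND), 0.999 (DPI against Veh) and 0.329 (Pecam1, DPI against ND). Of all genes tested, 0.0614%, 0% and 0.00878% passed it. At an unadjusted p under 0.05 there were 19, 11 and 3 members (13%, 4.13% and 10.7% of all tested genes), DESeq2 gave 9, 0 and 1 members past its own adjustment and edgeR's likelihood ratio test 10, 0 and 0. Over all tested genes, 2.74%, 0.0176% and 1.92% passed by DESeq2 and 2.46%, 0.00878% and 1.63% by the likelihood ratio test. In Veh against ND the quasi-likelihood test passed 5 members without ND2, where the share of all genes rose to 4.61%. Without a filter on low counts it passed 5 members and 0.327% of all genes, the members being Clec4g (adjusted p = 0.0188), Aqp1 (0.0262), Ramp2 and Tspan7 (0.0328 for both) and Dnase1l3 (0.0487). Over the tested members, the median log2 fold change was -4.17 in Veh against ND, 2.85 in DPI against Veh and -1.49 in DPI against ND, where over all genes it was 0.03, 0.04 and 0.04. With members at 0 in a group set to their bound against the floor, and members with 1 to 3 counts in a group set to the ratio of pooled levels, the first and second medians were -3.21 and 1.85. Over all 35 members, 20 were lower in every Veh library than in every ND library and 1 was higher, against 19.2% and 10.1% of tested genes. In DPI against Veh 0 members were apart in either direction (3.7% and 1.81% of tested genes). In DPI against ND 10 were lower and 1 was higher (12.2% and 8.44%).

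**Figure D3:**
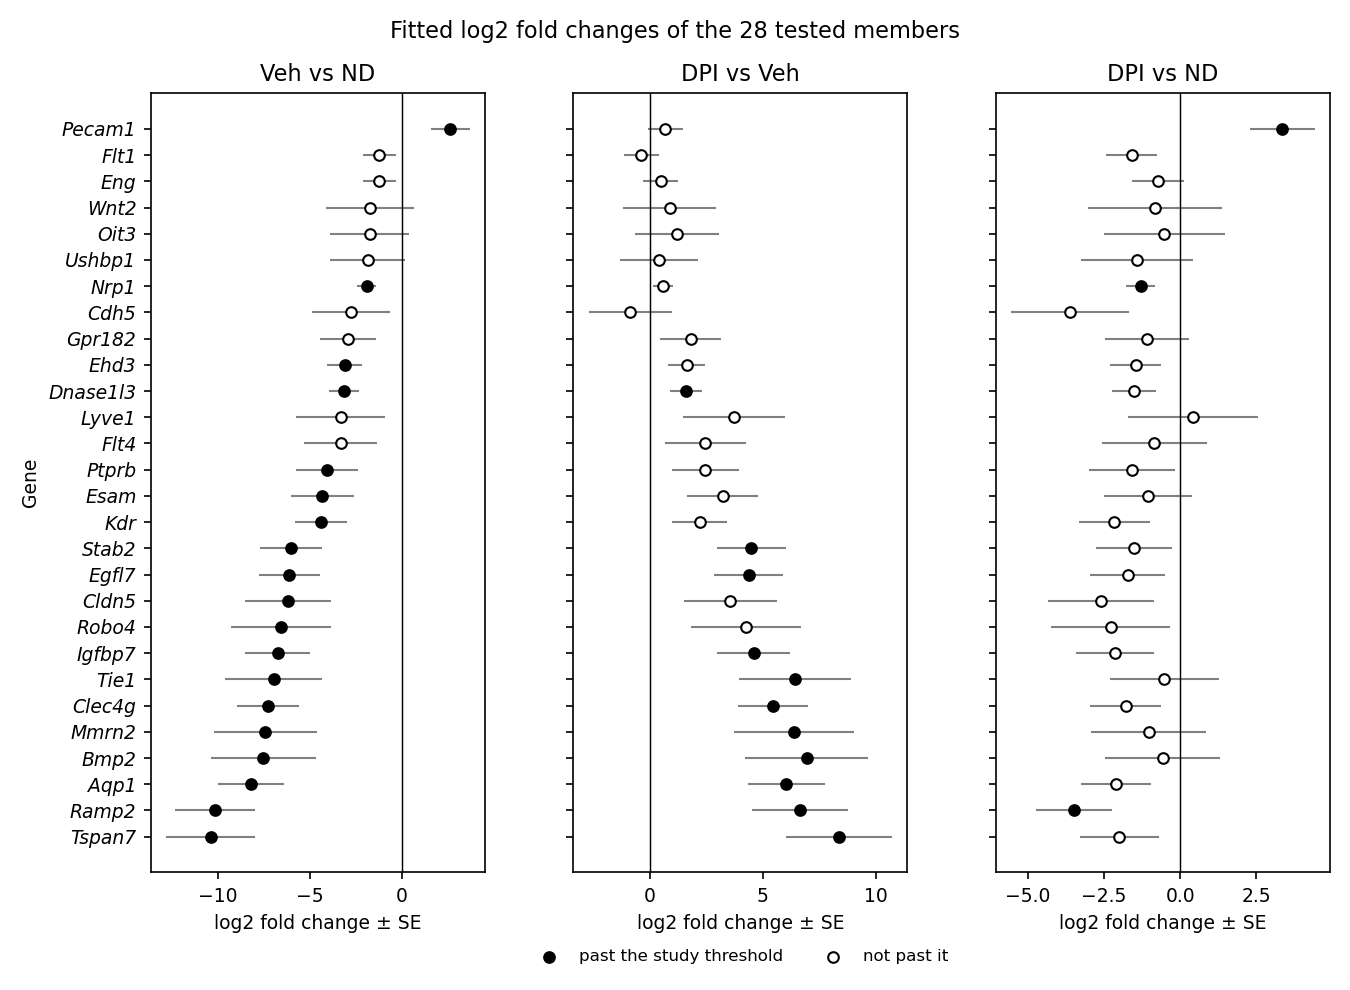
Fitted log2 fold change with its SE (horizontal axes, which differ in range between panels) for the 28 tested members (rows, ordered by the first panel) in Veh against ND, DPI against Veh and DPI against ND. Filled points passed the study's threshold, 19, 11 and 3 of them; in the first panel all but Pecam1 lie left of 0, in the second all but Flt1 and Cdh5 lie right of it. Fitted values of members at 0 in Veh depend on the prior count of the fit.

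Among the scavenger and surface genes of the sinusoid, 4 of 7 were lower in Veh than in ND and 3 of 7 were higher in DPI than in Veh. Clec4g (chr8:3707064-3720651), which encodes the lectin LSECtin of sinusoidal endothelium, had 83.6 and 105 CPM in the ND libraries, 0, 0 and 1.42 CPM in the Veh libraries and 60.1, 26.9, 0 and 5.63 CPM in the DPI libraries. Veh1, Veh2 and DPI3 held 0 reads of it, while the ND libraries and DPI1 held the most. The group means were 94.1 ± 14.8 CPM (SD, n = 2) in ND, 0.474 ± 0.822 CPM (SD, n = 3) in Veh and 23.1 ± 27.2 CPM (SD, n = 4) in DPI. Clec4g fell in Veh against ND (log2 fold change -7.25 ± 1.69 (SE), unadjusted p = 0.000807, adjusted p = 0.131) and rose in DPI against Veh (5.46 ± 1.56, unadjusted p = 0.00368). All Veh reads of it were in Veh3, and without that library ND was at least 157-fold and DPI at least 38.5-fold above Veh. Without DPI1 the log2 fold change in DPI against Veh was 4.46.

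Stab2 (chr10:86841198-87008025), the gene of stabilin-2, a scavenger receptor for hyaluronan, had 45.2 and 57.5 CPM in the ND libraries, 0, 0.181 and 1.63 CPM in the Veh libraries and 39.6, 19.5, 0 and 1.84 CPM in the DPI libraries. As for Clec4g, DPI1 and DPI2 were high and DPI3 was at 0. It fell in Veh against ND (log2 fold change -6.01 ± 1.67 (SE), unadjusted p = 0.00311, adjusted p = 0.193) and rose in DPI against Veh (4.50 ± 1.53, unadjusted p = 0.0111), with 3.52 without DPI1. Without Veh3, a single Veh read was left, and the pooled ratio to Veh was 519-fold (exact 95% counting interval 92.7 to 20528) for ND and 210.2-fold (exact 95% counting interval 37.6 to 8316) for DPI. Of the reads on Stab2 and Clec4g together, Stab2 took 35.1% in ND1 (exact 95% interval 31.3 to 39.1) and 35.5% in ND2 (32.1 to 39), and 39.7% in DPI1 (37.3 to 42.2), 42.1% in DPI2 (34.4 to 50) and 24.6% in DPI4 (15.1 to 36.5). In Veh3 it took 53.3% (26.6 to 78.7) of 15 reads and in Veh2 the only read, and Veh1 and DPI3 held no read of either gene. Across the first 5 libraries the share of Stab2 ran from 24.6% to 42.1%, while the levels of both genes differed far more.

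Dnase1l3 (chr14:7964533-7994573), a secreted DNase that macrophages also make, had 108 and 130.2 CPM in the ND libraries, 12.3, 5.98 and 14.6 CPM in the Veh libraries and 92.1, 30.3, 6.52 and 15.3 CPM in the DPI libraries. It was read in all 9 libraries, and no Veh library reached the ND range. It fell in Veh against ND (log2 fold change -3.11 ± 0.81 (SE), unadjusted p = 0.00195, adjusted p = 0.166) and rose in DPI against Veh (1.60 ± 0.71, unadjusted p = 0.0403). Its share of the reads on Dnase1l3 and Clec4g together was 56.3% and 55.5% in ND and 60.5% and 53% in DPI1 and DPI2, but 100%, 100% and 91.1% in Veh, 100% in DPI3 and 73.1% in DPI4.

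Ehd3, whose product acts in endocytic recycling, had 56 and 253 counts in ND, 10, 25 and 13 in Veh and 310, 46, 29 and 16 in DPI and was lower in Veh than in ND (log2 fold change -3.10 ± 0.94 (SE), unadjusted p = 0.00561, adjusted p = 0.234). Without ND2 its log2 fold change was -1.57 and did not pass, and without ND1 it was -3.80. Gpr182, an atypical chemokine receptor of sinusoidal endothelium, had 31 and 191 counts in ND, 17, 24 and 0 in Veh and 441, 27, 0 and 22 in DPI, and both ND libraries lay above the Veh libraries in CPM, but it did not pass the threshold. The remaining members of this group were read unevenly even within ND. Lyve1, a hyaluronan receptor shared by lymphatic and sinusoidal endothelium, had 0 and 33 counts in ND, 4, 0 and 0 in Veh and 158, 20, 0 and 0 in DPI. Oit3, a secreted protein gene of sinusoidal endothelium and hepatocytes, had 7 and 69 counts in ND, 0, 0 and 26 in Veh and 265, 9, 0 and 0 in DPI, so that Veh3 exceeded ND1. For both genes the groups overlapped.

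Among the 7 receptors of VEGF and angiopoietin and their partners, Kdr, Nrp1, Tie1 and Ptprb were lower in Veh than in ND, and Tie1 was higher in DPI than in Veh. Kdr, the main signalling receptor of VEGF in endothelium, had 32 and 90 counts in ND, 2, 1 and 4 in Veh and 114, 4, 6 and 4 in DPI. In CPM, DPI1 (7.31) lay between ND1 (6.86) and ND2 (18.7), and all other libraries lay below these. Kdr fell in Veh against ND (log2 fold change -4.38 ± 1.39 (SE), unadjusted p = 0.00755, adjusted p = 0.254).

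Nrp1, a co-receptor of VEGF that macrophages also express, had 109.5 and 62.9 CPM in the ND libraries, 11.6, 29.9 and 14.8 CPM in the Veh libraries and 41.3, 35.1, 24 and 17.1 CPM in the DPI libraries. It was well read in every library, and both other groups lay below ND without overlap. It fell in Veh (log2 fold change -1.90 ± 0.51 (SE), unadjusted p = 0.00234, adjusted p = 0.175) and in DPI against ND (log2 fold change -1.30 ± 0.47 (SE), unadjusted p = 0.0152, adjusted p = 0.375), and the DPI and Veh libraries overlapped. Without ND1 the second fold change was -0.88, which is under the threshold.

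Ptprb, a phosphatase that restrains angiopoietin receptor and junction signalling, had 36 and 216 counts in ND, 18, 0 and 1 in Veh and 379, 13, 0 and 29 in DPI, and it was lower in Veh (log2 fold change -4.05 ± 1.67 (SE), unadjusted p = 0.0304, adjusted p = 0.345). Tie1, an orphan partner of the angiopoietin receptor, had 2 and 23 counts in ND, 0, 0 and 0 in Veh and 35, 9, 0 and 13 in DPI. Against Veh, where it was at 0 throughout, its level was at least 4.32-fold higher in ND (unadjusted p = 0.0219, adjusted p = 0.322) and at least 2.57-fold higher in DPI (unadjusted p = 0.025). Both calls rest on few reads: the bound for ND was 7.94-fold without ND1 and was lost without ND2, where ND was at or under the floor. Without ND2, none of Kdr, Tie1 and Ptprb passed in Veh against ND, with log2 fold changes of -3.39 for Kdr and -2.19 for Ptprb and an unadjusted p of 0.171 for Tie1. Leaving out the Veh library with the most reads of a gene raises its fold by construction. Without that library, Veh3, the pooled ND level of Kdr was 43.3-fold (exact 95% counting interval 14.5 to 213) that of Veh. For Ptprb it was Veh1, and without it the ND level was 278-fold (exact 95% counting interval 49.4 to 11015). Tie1 also lost its call without Veh2 (unadjusted p = 0.0515), and Ptprb without Veh2 (-3.44) or Veh3 (-3.53).

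Flt1 and Flt4 did not pass the threshold in any comparison. Flt1, a decoy-like VEGF receptor also found on macrophages, had 239 and 35 counts in ND, 71, 58 and 25 in Veh and 137, 54, 9 and 53 in DPI, and ND2 lay within the Veh range in CPM. Flt4, a receptor for the lymphatic VEGF ligands, had 32 and 30 counts in ND, 0, 0 and 7 in Veh and 110, 17, 0 and 2 in DPI, and both ND libraries lay above Veh. Tek, the angiopoietin receptor, could not be tested: it had 30 and 6 counts in DPI1 and DPI2 and at most 2 in any other library. Its pooled level in DPI was 8.01-fold (exact 95% counting interval 2.06 to 68.7) that in Veh, and 2.48-fold (interval 0.444 to 25.1) without DPI1. Without Veh1 it was at least 1.57-fold higher, and without Veh2 the ratio was 5.06-fold (interval 1.3 to 43.4).

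Junction and surface genes of endothelium at large were mixed. In Veh against ND, Esam, Cldn5, Robo4 and Mmrn2 were lower and Pecam1 was higher among 9 members, and in DPI against Veh Mmrn2 was higher. Esam, an adhesion molecule of endothelial tight junctions, had 53 and 32 counts in ND, 0, 1 and 4 in Veh and 81, 26, 0 and 13 in DPI (log2 fold change -4.30 ± 1.73 (SE), unadjusted p = 0.0267, adjusted p = 0.335). Cldn5, a claudin that seals endothelial tight junctions, had 75 and 43 counts in ND, 0, 2 and 0 in Veh and 110, 0, 0 and 0 in DPI, and the pooled ND level was 93.5-fold (exact 95% counting interval 25.3 to 781) the pooled Veh level (unadjusted p = 0.0197, adjusted p = 0.314). Without Veh2 the ND level was at least 19.8-fold higher. All Cldn5 reads of the DPI group came from DPI1.

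Robo4, an endothelial guidance receptor, had 94 and 0 counts in ND, 1, 0 and 0 in Veh and 104, 1, 0 and 0 in DPI. ND1 and DPI1 held nearly all its reads, and ND2 held none, so the groups overlapped although the gene passed the threshold (unadjusted p = 0.0300, adjusted p = 0.345). The pooled ND level was 149-fold (exact 95% counting interval 26.1 to 5945) that of Veh. Without ND1 both groups were at or under the floor, with 0 counts in ND and 1 in Veh, so no direction could be read. Mmrn2, an extracellular matrix protein that binds endothelial surface receptors, had 1 and 33 counts in ND, 0, 0 and 0 in Veh and 37, 11, 0 and 3 in DPI. It was at least 5.87-fold higher in ND than in Veh (unadjusted p = 0.0226, adjusted p = 0.325) and at least 2.41-fold higher in DPI (unadjusted p = 0.0345). The second bound was 1.49-fold without DPI2, and the first was 11.4-fold without ND1 and was lost without ND2, where ND was at or under the floor.

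These calls did not hold with every library. Without 1 library, the log2 fold change in Veh against ND no longer passed for Esam (ND1 -3.91, Veh1 -3.70, Veh2 -3.95) and for Cldn5 (Veh1 -5.61, Veh3 -5.65). Nor did Robo4 pass without Veh2 (-6.01), Veh3 (-6.08) or Veh1, where the other Veh libraries were at 0. The pooled Robo4 ratio was 302-fold without ND2 and 94.2-fold without Veh2, and without Veh1 ND was at least 17.5-fold higher. Mmrn2 lost its call without ND2 (unadjusted p = 0.292) or Veh2 (0.0535). Without Veh3, the Veh library with the most Esam reads, the pooled ND level of Esam was 90.5-fold (exact 95% counting interval 15.8 to 3617) that of Veh.

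Pecam1 (chr11:106654217-106750628), an adhesion molecule of endothelium, platelets and many leukocytes, was the only tested member with a positive fold change in Veh against ND. It had 1.07 and 1.25 CPM in the ND libraries, 8.54, 9.06 and 1.42 CPM in the Veh libraries and 11.2, 7.36, 3.17 and 20.4 CPM in the DPI libraries. The ND libraries lay below every other library, and the highest value was that of DPI4, where most of the panel was low. The group means were 1.16 ± 0.126 CPM (SD, n = 2) in ND, 6.34 ± 4.27 CPM (SD, n = 3) in Veh and 10.5 ± 7.34 CPM (SD, n = 4) in DPI. It rose in Veh against ND (log2 fold change 2.66 ± 1.05 (SE), unadjusted p = 0.025, adjusted p = 0.333), and its level in DPI passed the threshold against ND (log2 fold change 3.35 ± 1.06 (SE), unadjusted p = 0.00732, adjusted p = 0.329) but not against Veh (0.69 ± 0.77). The call in Veh against ND was lost without ND1 (2.53), Veh1 (2.46) or Veh2 (2.34), after thinning to equal totals (2.33) and in a fit of the 2 groups alone (2.65, unadjusted p = 0.0755). The call in DPI against ND was kept in every fit that left out 1 library.

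Eng, a co-receptor of transforming growth factor that macrophages also express, had 24.4 and 43.3 CPM in the ND libraries, 26.3, 3.62 and 6.91 CPM in the Veh libraries and 38.4, 19, 8.94 and 3.68 CPM in the DPI libraries. Veh1 reached the ND range, and the gene passed in no comparison. Cdh5, the cadherin of endothelial junctions, had 14 and 14 counts in ND, 5, 0 and 0 in Veh and 7, 1, 0 and 0 in DPI, and although both ND libraries lay above all others it passed in no comparison (-2.75 ± 2.10 in Veh against ND and -3.62 ± 1.94 in DPI against ND). Emcn, a sialomucin, had 20 counts in Veh2, 18 in DPI1 and 0 elsewhere. Plvap, the protein of fenestral diaphragms, had 33 counts in ND2, 12 in DPI1 and 0 elsewhere.

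Of the 5 angiocrine and secreted factors, Bmp2, Egfl7 and Igfbp7 were lower in Veh than in ND and higher in DPI than in Veh. Bmp2, through which endothelium drives hepcidin in hepatocytes, had 2 and 35 counts in ND, 0, 0 and 0 in Veh and 93, 10, 0 and 1 in DPI. It was at least 6.39-fold higher in ND than in Veh (unadjusted p = 0.0224, adjusted p = 0.325) and at least 3.69-fold higher in DPI (unadjusted p = 0.0261). The ND reads came almost wholly from ND2, and the first bound was 12.1-fold without ND1 and was lost without ND2. The bound for DPI was 1.62-fold without DPI1. The first call was lost without ND2 (unadjusted p = 0.184) or Veh2 (0.0536).

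Egfl7 (chr2:26580014-26593120), a secreted protein of the vascular matrix, had 23.8 and 24.8 CPM in the ND libraries, 0.876, 0 and 0 CPM in the Veh libraries and 18, 4.24, 0 and 3.14 CPM in the DPI libraries. Its ND libraries were close to each other, and Veh2, Veh3 and DPI3 held no read of it. It fell in Veh against ND (log2 fold change -6.10 ± 1.67 (SE), unadjusted p = 0.00277, adjusted p = 0.182) and rose in DPI against Veh (4.37 ± 1.52, unadjusted p = 0.0126). All Veh reads of Egfl7 were in Veh1, and without it ND was at least 42.1-fold and DPI at least 11-fold higher. Igfbp7 (chr5:77349240-77408041), a binding protein of insulin-like growth factors laid down by endothelium, had 18.6 and 19 CPM in the ND libraries, 0, 0.362 and 0 CPM in the Veh libraries and 11.6, 1.98, 0 and 1.08 CPM in the DPI libraries. The pooled ND level was 141-fold (exact 95% counting interval 38.5 to 1173) the pooled Veh level (unadjusted p = 0.0022, adjusted p = 0.173), and the pooled DPI level was 44.1-fold (exact 95% counting interval 12 to 366) that level (unadjusted p = 0.0137). Those intervals cover counting error alone. All Igfbp7 reads of Veh were in Veh2, and without it ND was at least 29.7-fold and DPI at least 5.79-fold higher, while without DPI1 the DPI ratio was 7.03-fold (interval 1.67 to 62.8). Without DPI1 neither gene passed in DPI against Veh, with log2 fold changes of 3.07 and 2.81.

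The Wnt pathway members and the transcription factors were thinly read. Wnt2, a ligand by which sinusoidal endothelium supports hepatocyte zonation and growth, had 0 and 29 counts in ND, 0, 13 and 0 in Veh and 64, 6, 0 and 0 in DPI. Rspo3, an enhancer of Wnt signalling from central vein endothelium, had 8 counts in Veh2 and 0 elsewhere. Gata4, a regulator of sinusoidal identity, had 43 counts in ND2 and 0 elsewhere, and Sox18, a factor of vascular and lymphatic development, had 0 counts in all 9 libraries. At these depths that allows a level of Sox18 of up to 0.192 CPM in DPI1 and 0.849 CPM in DPI2.

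Of the remaining 5 members, Ramp2, Aqp1 and Tspan7 were lower in Veh than in ND and higher in DPI than in Veh. Ramp2 (chr11:101246028-101259546), which makes the calcitonin receptor-like receptor into an adrenomedullin receptor, had 26.6 and 22.5 CPM in the ND libraries, 0, 0 and 0 CPM in the Veh libraries and 5.9, 0.283, 0 and 1.19 CPM in the DPI libraries. All 3 Veh libraries were at 0 and all DPI libraries lay below ND. The ND level was at least 40.6-fold and the DPI level at least 3.06-fold above Veh (unadjusted p = 0.000625 and 0.0088, adjusted p = 0.127 and 0.999). The bound for DPI rests on DPI1, and without that library the DPI mean lay below the floor of the Veh group, so that no bound remained. DPI was also below ND (log2 fold change -3.49 ± 1.25 (SE), unadjusted p = 0.0168, adjusted p = 0.38), with a log2 fold change of -5.26 without DPI1.

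Aqp1 (chr6:55336432-55348555), a water channel of endothelium, bile ducts and red cells, had 21.9 and 35.6 CPM in the ND libraries, 0, 0.181 and 0 CPM in the Veh libraries and 15.1, 6.22, 0 and 1.3 CPM in the DPI libraries. A single read in Veh2 was all that the Veh group held. The pooled ND level was 433-fold (exact 95% counting interval 77 to 17148) that of Veh (unadjusted p = 0.000514, adjusted p = 0.115), and the pooled DPI level was 120.1-fold (exact 95% counting interval 21.4 to 4763) that of Veh (unadjusted p = 0.00314). Without DPI1 the latter was 28.1-fold (interval 4.72 to 1143), and without Veh2 the levels were at least 45.4-fold and 8.94-fold above Veh. Tspan7 (chrX:10485158-10596605), a membrane tetraspanin, had 43.3 and 14.8 CPM in the ND libraries, 0, 0 and 0 CPM in the Veh libraries and 18.9, 4.24, 1.49 and 0 CPM in the DPI libraries. It was at 0 in Veh and in DPI4, and at least 48.1-fold higher in ND and at least 10.2-fold higher in DPI than in Veh (unadjusted p = 0.0012 and 0.00431, adjusted p = 0.14 and 0.999). These bounds were 24.5-fold without ND1 and 3.17-fold without DPI1. Ushbp1 had 22 and 8 counts in ND, 1, 11 and 0 in Veh and 56, 1, 0 and 1 in DPI, with overlap of all groups, and Cyyr1 had 18 counts in DPI1 and at most 4 in any other library.

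**Figure D4:**
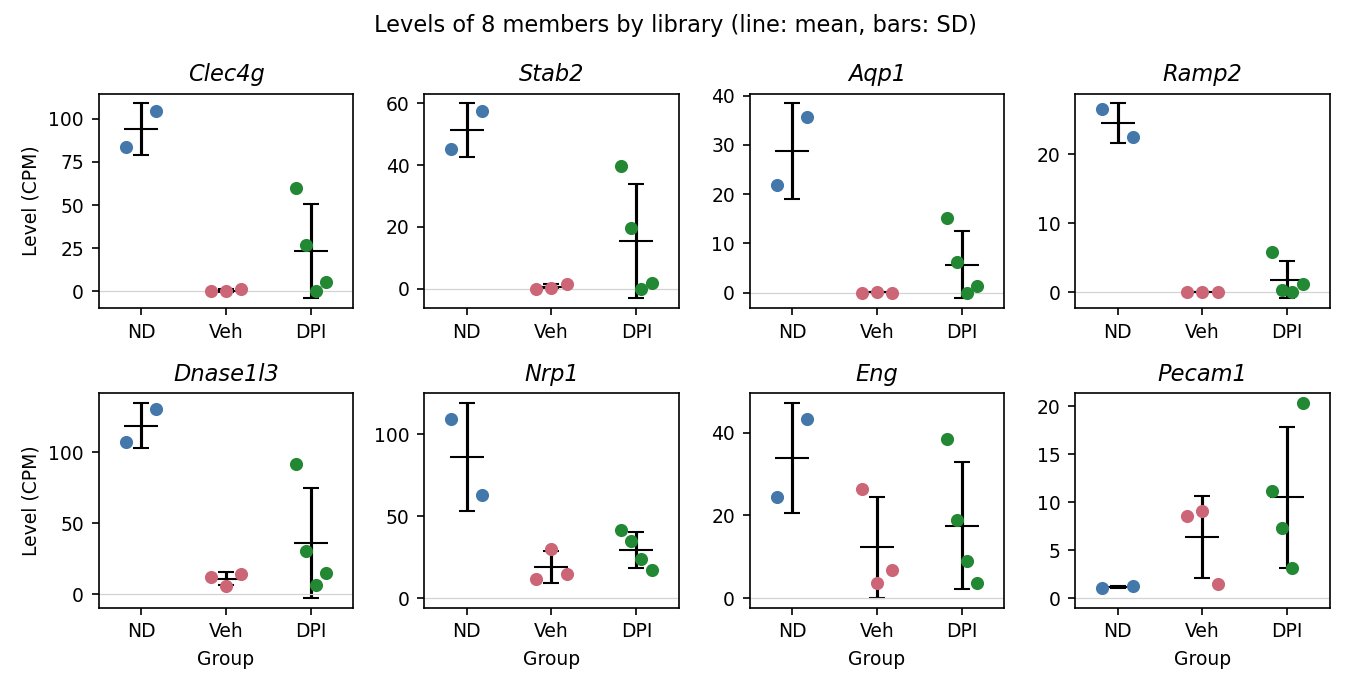
Level in CPM (vertical axes, which differ in range between panels) of 8 members in the ND, Veh and DPI libraries, 1 point per library, with the group mean as a horizontal line and the SD as bars. Clec4g, Stab2, Aqp1 and Ramp2 lie at or near 0 in all Veh libraries, Dnase1l3, Nrp1 and Eng remain measurable there, and Pecam1 lies lowest in ND; the DPI points spread from the Veh range up to 60.1 CPM for Clec4g.

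Fewer calls were kept with each library left out in turn. In Veh against ND, 9 members passed in every fit that left out a library, namely Aqp1, Clec4g, Dnase1l3, Egfl7, Igfbp7, Nrp1, Ramp2, Stab2 and Tspan7. All 9 were also called in the fit of those 2 groups alone. Members at or near 0 in Veh, such as Ramp2 and Tspan7, still entered that fit through their ND reads, so it gives them no independent support. For DPI against Veh, 5 members passed in every fit that left out a library, namely Aqp1, Clec4g, Ramp2, Stab2 and Tspan7, but of these Clec4g alone could be tested in a fit of DPI and Veh, and the bound for Ramp2 rests on DPI1. Without DPI1, 6 members passed in DPI against Veh in place of 11 (1.91% of all genes), and 10 passed in DPI against ND in place of 3 (8.95%). Without Veh2, 12 members passed in Veh against ND in place of 19 (10.9% of all genes), and 7 in DPI against Veh, where the share of all genes rose to 4.64%. In DPI against Veh, Dnase1l3 no longer passed without Veh1, Veh2, DPI1 or DPI2 (log2 fold changes 1.63, 1.27, 0.64 and 1.60). In Veh against ND, DESeq2 did not call Ptprb (log2 fold change -4.08, unadjusted p = 0.082). It gave no p for Cldn5 and Robo4 (log2 fold changes -6.48 and -6.83), so these were not tested by it. Tie1, Mmrn2 and Bmp2 no longer passed in DPI against Veh with Veh1, Veh2 or Veh3 left out, with an unadjusted p of 0.0518 to 0.077. Their fitted fold changes are set by the prior count, since all Veh libraries are at 0, and are not given. Mmrn2 also lost its call without DPI1 (unadjusted p = 0.0573) or DPI2 (0.0718), and Bmp2 without DPI1 (0.0664).

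Per kilobase of exon, which allows levels to be set side by side between genes, the order in ND was led by Clec4g with 38.2 ± 6.02 CPM per kb (SD, n = 2). Dnase1l3 followed with 23.1 ± 3.1, Igfbp7 with 15.5 ± 0.181 and Aqp1 with 10.9 ± 3.7. Cldn5, Nrp1, Eng, Ramp2 and Egfl7 came next, between 6.78 and 8.84 CPM per kb, and differed by less than the SD of Cldn5, Nrp1 or Eng. In Veh, Eng had 3.03 ± 3.02, Dnase1l3 2.13 ± 0.869 and Nrp1 1.92 ± 0.998 CPM per kb (SD, n = 3). These 3, all known from macrophages, differed by less than the SD of Eng, which without Veh1 stood at 1.3 against 2.00 and 2.29, and Clec4g stood at 0.193.

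Exons of 10 members overlap another annotated gene, and whether reads were counted by strand is not given in the sources used here. Igfbp7 overlaps Polr2b, Gpr182 overlaps Zbtb39, Clec4g overlaps Gm16553, Stab2 overlaps Gm16268, Eng overlaps Fpgs and Rspo3 overlaps Gm48159, each on the opposite strand. On the same strand, Ramp2 overlaps Vps25, Nrp1 the microRNA gene Mir1903 and Cyyr1 Gm2541, and Egfl7 overlaps Agpat2, Gm20532 and the microRNA genes Mir126a and Mir126b, with both strands among them. Reads of such pairs could have been divided between the genes, so their levels are uncertain to that extent.

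A wider list of 92 other endothelial and angiogenic genes, of which 62 were tested, had calls in each direction. In Veh against ND 8 (12.9%) were lower and 4 (6.45%) higher, against 4.63% and 7.03% of all tested genes. In DPI against Veh 3 were higher and 3 lower (4.84% each), against 1.5% and 1.34%, and in DPI against ND 4 (6.45%) were higher and 6 (9.68%) lower, against 6.24% and 3.05%. No gene of the list had an adjusted p under 0.05 by edgeR's quasi-likelihood test. The median log2 fold changes of these genes were -0.31, 0.17 and -0.12, against -4.17, 2.85 and -1.49 for the tested members. Their summed level was 2054 and 1647 CPM in ND, 1701, 1620 and 1519 CPM in Veh and 1201, 1101, 1225 and 1772 CPM in DPI.

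Lowest in p among those lower in Veh than in ND were Gpr116, Eltd1 and Tfpi. Gpr116, an adhesion receptor of endothelium and lung epithelium, had 94 and 64 counts in ND, 0, 0 and 0 in Veh and 78, 5, 0 and 3 in DPI, and was at least 27.7-fold higher in ND and at least 2.79-fold higher in DPI than in Veh, where the second bound was lost without DPI1. Eltd1, an adhesion receptor of vessels, had 120 and 5 counts in ND, 0, 0 and 0 in Veh and 72, 6, 0 and 0 in DPI, and was at least 22.2-fold higher in ND and at least 2.62-fold higher in DPI, with bounds of 1.73-fold for ND without ND1 and none for DPI without DPI1. Tfpi, the inhibitor of tissue factor, had 53 and 58 counts in ND, 0, 2 and 0 in Veh and 7, 10, 0 and 1 in DPI. These resembled the members in being at or near 0 in Veh and in DPI3. Opposite to them, Cd36, a fatty acid transporter of endothelium and macrophages alike, had 148 and 153 counts in ND, 498, 485 and 329 in Veh and 367, 111, 254 and 721 in DPI and was higher in Veh (log2 fold change 1.75 ± 0.47 (SE), unadjusted p = 0.00228, adjusted p = 0.175) and lower in DPI than in Veh (log2 fold change -1.04 ± 0.36 (SE), unadjusted p = 0.0124, adjusted p = 0.999). Jag1, a Notch ligand, and Bmpr2, a receptor of bone morphogenetic protein, were also higher in Veh, with 0 and 0 counts in ND, 26, 6 and 1 in Veh and 31, 4, 3 and 75 in DPI for Jag1 and 2 and 1 counts in ND, 27, 7 and 15 in Veh and 10, 15, 22 and 38 in DPI for Bmpr2.

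In DPI against Veh, Gpr116, Eltd1 and She passed as higher and Cd36, Vwf and Nrp2 as lower. She had 0 and 20 counts in ND, 0, 1 and 0 in Veh and 52, 0, 8 and 43 in DPI. Vwf, the von Willebrand factor of larger vessels, had 28 and 59 counts in ND, 13, 3 and 19 in Veh and 8, 1, 3 and 5 in DPI, and Nrp2 had 18 and 52 counts in ND, 69, 67 and 122 in Veh and 98, 45, 18 and 37 in DPI. In DPI against ND, Vwf, Notch1 and Calcrl had the smallest p of those lower, at 0.00381, 0.0166 and 0.0269, and Jag1, Bmpr2 and Edn1 of those higher, at 0.0158, 0.0373 and 0.0465 (unadjusted p, edgeR). Calcrl, the receptor that Ramp2 partners, had 78 and 108 counts in ND, 60, 11 and 88 in Veh and 88, 16, 18 and 48 in DPI, so that it remained readable in the Veh libraries where Ramp2 was at 0.

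Markers of other cell types also differed among these libraries. Of 19 tested hepatocyte genes, 6 were lower and 1 was higher in Veh than in ND, 0 passed in DPI against Veh and 6 were lower in DPI than in ND. Over all tested genes 4.63% were lower and 7.03% higher in the first comparison, 2.84% passed in the second and 3.05% were lower in the third. The list summed to 1756 and 2030 CPM in ND, 796 to 1381 CPM in Veh and 1936, 709, 1084 and 1254 CPM in DPI. Alb had 66 and 120 CPM in ND, 5.44 to 21.5 CPM in Veh and 11.9 to 26.3 CPM in DPI. Neutrophil genes summed to 1422 and 3386 CPM in ND, 2210 to 3046 CPM in Veh and 921, 609, 3602 and 5402 CPM in DPI, so the DPI libraries with the most endothelial reads had the fewest neutrophil reads. Of 7 tested neutrophil genes, 0 were higher and 2 were lower (Camp and Mmp8) in Veh than in ND, 3 were higher (Camp, Ltf and Ngp) and 0 were lower in DPI than in Veh (median over the 7 of 0.70 on the log2 scale), and 0 passed in DPI against ND, where the shares over all tested genes were those given for hepatocyte genes and, for genes higher in DPI than in Veh, 1.5%. B cell genes, 4 in all, summed to 40 and 13 CPM in DPI1 and DPI2 and to 116 and 422 CPM in DPI3 and DPI4. Genes of stellate cells and fibroblasts summed to at most 106 CPM in any library, and 7 to 10 of the 12 were at 0. The part of these cell types in the endothelial differences was not tested.

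**Figure D5:**
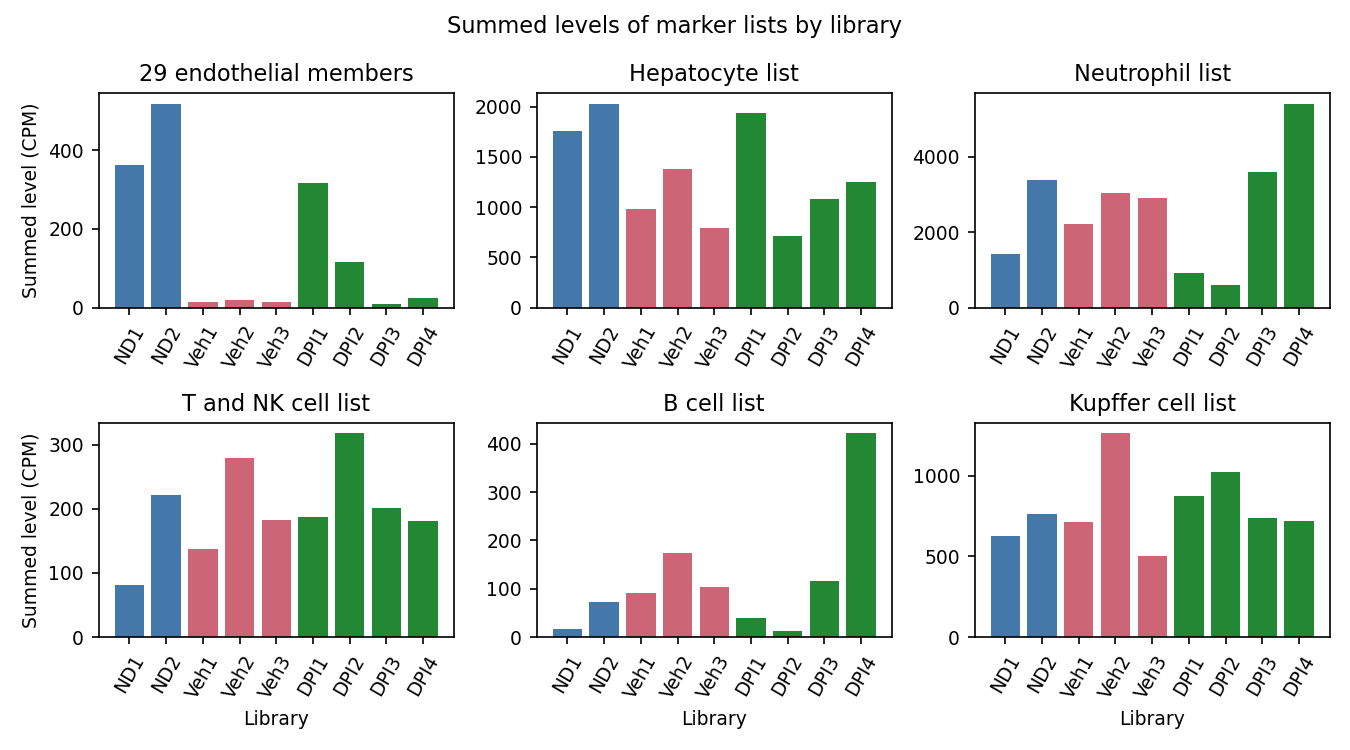
Summed level in CPM (vertical axes, which differ in range between panels) of the 29 endothelial members not known from macrophages and of 5 marker lists, in each of the 9 libraries (horizontal axes). The endothelial sum is 316 and 116 CPM in DPI1 and DPI2, where the neutrophil sum is 921 and 609 CPM, and 8.01 and 25.5 CPM in DPI3 and DPI4, where the neutrophil sum is 3602 and 5402 CPM.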

How the data were processed

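Poly(A) RNA of sorted liver macrophages was sequenced in 9 libraries, and the deposited table holds raw counts per gene, with no normalization by the authors. Reads were aligned to mm10. The study's methods name bowtie2 and RSEM for the counts, whereas the submitters' processing notes name TopHat2 and edgeR; the table holds whole numbers and was used as deposited. The members and gene lists were chosen with earlier results of these data known. Groups and replicate numbers were taken from sample titles.

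Counts were tested with edgeR 4.0.16 (R 4.3.3; filterByExpr, TMM factors, glmQLFit and glmQLFTest) in 1 fit of all 9 libraries, with Benjamini-Hochberg adjustment across 11393 genes. The biological coefficient of variation was 0.65. Replicates of a group differed by more than sampling noise. CPM used library totals of 3534325 to 15585775. A fold against a group at 0 in all libraries was computed against 3 counts per library, and where a group held 1 to 3 counts in all, the ratio of pooled CPM was given with an exact conditional 95% interval. As alternatives, scaling by RLE or by library size was used, no filter or at least 10 counts in every library, DESeq2 1.42.0, the likelihood ratio test, fits of 2 groups, the replicate number as a block, totals without Rn45s, sums on TMM totals or with members left out, and each library left out; thinned libraries and the unpaired fit of the same libraries were added after seeing the data. Counts or CPM for every library are given for each tested member, statistics for members past the threshold, with a bound or pooled ratio in place of the fitted fold change over all libraries where a group held at most 3 counts, and of other lists the 3 genes with the smallest p in each direction. Positions and exon lengths came from GENCODE M21 (GRCm38), promoters from RefSeq on GRCm38. Marker lists of Kupffer cells, macrophage sort genes, hepatocytes, stellate cells, cholangiocytes, neutrophils, platelets, red cells, T and NK cells and B cells were summed per library.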

Additional observations from a re-analysis of the deposited data

Results flagged for a closer look

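Within the DPI group, 1 library stood apart from the other 3 for 10 of 37 values examined. The cut-off flags about 1 in 20 of independent, normally distributed values. The members vary together between libraries and many lie near 0, so that rate is no measure of how unusual the 10 are. In each case it was DPI1, the deepest library, and it was the highest. The gap to the next library, as a share of the whole range of the group, lay at or above 0.829 for Oit3 (gap 0.85 of the range, 17 against 2.55 CPM for the next library), Kdr (gap 0.899 of the range, 7.31 against 1.13 CPM for the next library), Ptprb (gap 0.849 of the range, 24.3 against 3.68 CPM for the next library), Cldn5 (gap 1 of the range, 7.06 against 0 CPM for the next library) and Emcn (gap 1 of the range, 1.15 against 0 CPM for the next library). It did so too for Robo4 (gap 0.958 of the range, 6.67 against 0.283 CPM for the next library), Plvap (gap 1 of the range, 0.77 against 0 CPM for the next library), Igfbp7 (gap 0.829 of the range, 11.6 against 1.98 CPM for the next library), Cyyr1 (gap 1 of the range, 1.15 against 0 CPM for the next library) and Ushbp1 (gap 0.921 of the range, 3.59 against 0.283 CPM for the next library). For Cldn5, Emcn, Plvap and Cyyr1 the other 3 DPI libraries were at 0, so the gap is 1 by construction and the rate of 1 in 20 does not apply to them; Emcn, Plvap and Cyyr1 had 18, 12 and 18 counts in DPI1. The summed level of the panel was not set apart in this way, since DPI2 lay between DPI1 and the others.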

How the results depend on the processing

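In Veh against ND, 19 members passed the threshold, and with each library left out in turn 12 to 20 did, the fewest without Veh2. With at least 10 counts in every library, which left 4 members to be tested, 3 passed (10.7% of all genes). In DPI against Veh, 11 members passed, and 6 to 13 with a library left out, the fewest without DPI1. With at least 10 counts in every library, 4 members could be tested there and 2 passed, Dnase1l3 and Ehd3 (2.99% of all genes). A fit of the 2 groups alone tested 11 members and passed 3, each among the 11 called (3.78%). With the replicate number as a block, 9 members were tested and 1 passed, Ehd3 (5.61%). In the same libraries without the block, 9 were tested and 2 passed, Dnase1l3 and Ehd3 (5.79%). Of the 11 called members, Dnase1l3 alone could be tested with at least 10 counts in every library, with the block or without it. In DPI against ND, 3 members passed, and 3 to 10 with a library left out (the most without DPI1). There 5 passed with library size scaling (10.3% of all genes), 5 without a filter (8.66%) and 5 by the likelihood ratio test (12.3%). With the block 1 passed (2.95%), and 1 in the same libraries without it (4.84%). Only the fold change of Robo4 in Veh against ND reversed, to 2.29 without ND1 (range with a library left out -8.84 to 2.29). All other log2 fold changes of the called members kept their direction under the alternatives run. Library size scaling put the median fold change over all genes at -0.26, 0.12 and -0.17 (log2) in the 3 comparisons.

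Over all genes, counts at the threshold were 1329, 324 and 1058. With at least 10 counts in every library they were 726, 202 and 527, with the block 453, 566 and 299, in those libraries without it 571, 584 and 491, and with a library left out 1027 to 2634, 187 to 544 and 830 to 2626. The most were called without ND2 in the comparisons with ND and without ND1 in DPI against Veh, and the fewest in DPI against Veh without Veh1. Without a filter DPI against Veh gave 602. Of the other endothelial genes, 4, 3 and 3 passed with at least 10 counts in every library, and without a filter 19 in Veh against ND. The mean summed level in ND (712 CPM) was 622 on TMM totals, 1059 on totals without Rn45s, 439 without the 6 macrophage-expressed members and 592 without the leading member of each library; the last 3 were 117, 15.8 and 51.1 in Veh (74.8 CPM). The cause of these shifts was not tested.

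The labels number mice within groups. Deviations of same-numbered libraries from their group means had correlations of -0.02 to 0.08 over genes. With so few libraries in a group these deviations are tied to each other, so they cannot settle whether the numbers pair the mice. For 7 members too few libraries held enough counts for a test, and the ND level rests on 2 libraries.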

Other observations

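Lists for the remaining cell types also varied between libraries. In Veh against ND and DPI against Veh, median log2 fold changes were -0.66 and 1.09 for Kupffer cell genes and -6.77 and 6.24 for 3 tested cholangiocyte genes. For 1 tested platelet gene they were -1.07 and 0.89. They were -0.05 and -0.08 for macrophage sort genes, -0.64 and -1.34 for red cell genes, 0.65 and 0.098 for T and NK cell genes and 1.54 and 0.13 for B cell genes. Macrophage sort genes, 8 in all and led by Lyz2, summed to 24139 and 29453 CPM in ND, 16831 to 27101 CPM in Veh and 21505 to 48235 CPM in DPI, and Kupffer cell genes to 627 and 760 CPM in ND, 499 to 1262 CPM in Veh and 721 to 1023 CPM in DPI. Of 14 tested Kupffer cell genes, 3 were lower and 1 was higher in Veh than in ND, and 2 were higher and 1 was lower in DPI than in Veh, where 4.63% and 7.03%, and 1.5% and 1.34%, of all tested genes were so. Red cell genes had 3969 CPM in ND1 and 2168 CPM in Veh2, against at most 545 CPM in the other libraries. T and NK cell genes summed to 81.6 to 318 CPM, cholangiocyte genes to 9.64 to 77.2 CPM and platelet genes to 1.22 to 35 CPM over the 9 libraries. Neither order among libraries was that of the endothelial panel: DPI3, the library with the least of the panel, held 735 CPM of Kupffer cell genes, and DPI1 held 877 CPM.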
